A study of Mus musculus with 8 samples.

Results

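The IGHV6 (J606) and IGHV7 (S107) families of mouse heavy-chain variable genes were taken as every gene whose name starts with IGHV6- or IGHV7- in the tables of reads per gene segment, and as every complete heavy-chain contig whose listed V genes all belonged to 1 of these families. This gave 9 of 159 listed VH genes, 5 of IGHV6 and 4 of IGHV7, and 97 of 3882 complete contigs, 61 of IGHV6 and 36 of IGHV7. The RNA came from pro-B cells sorted as B220+, Cd43+, IgM- and CD25- from the bone marrow of mice aged 8 weeks. 4 samples carried the label control and 4 the label Setd2 knockout, all untreated and all of 1 sequencing batch, and they are called controls 1 to 4 and knockouts 1 to 4. Setd2 encodes a lysine methyltransferase of histone H3; the sources used here do not give the allele, the Cre driver, the strain or the animals behind the replicate numbers, so p-values rest on the spread among these 8 samples, some of which may be technical.

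A heavy-chain variable exon is built in pro-B cells by joining a D to a JH segment and then a VH segment to the DJ join. The VH segment encodes most of the variable domain, and the CDR3, the loop that touches antigen most often, is encoded where the segments meet. IGHV6 and IGHV7 are small families that lie between the families nearest the D segments, IGHV2 and IGHV5, and the distal families IGHV1 and IGHV8. The S107 family is known from the T15 antibodies to phosphorylcholine, which use IGHV7-1, and the J606 family from a myeloma antibody to a fructose polymer.

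On chromosome 12 of mm10, all on the minus strand, the IGHV7 genes lay at chr12:113896408-113896946 (IGHV7-1), chr12:113912025-113912483 (IGHV7-2), chr12:114153180-114153644 (IGHV7-3) and chr12:114222788-114223254 (IGHV7-4). The IGHV6 genes lay at chr12:114391712-114392010 (IGHV6-3), chr12:114406474-114406773 (IGHV6-4), chr12:114416596-114416895 (IGHV6-5), chr12:114434788-114435087 (IGHV6-6) and chr12:114455626-114455925 (IGHV6-7). The IGHV7 genes were spread over 327 kb among other families, while the IGHV6 genes stood side by side within 64.2 kb, 909.5 to 973 kb from IGHD1-1, the D segment nearest the VH genes. GENCODE M21 annotates all 9 as V genes with a leader exon and a V exon, while RefSeq for the same build lists IGHV7-1 and IGHV7-3 as pseudogenes. The listed spans of the IGHV6 genes are the V region of the V exon alone, and those of the IGHV7 genes also hold the leader exon and the intron.

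The V regions of the most read pair of each family are shown because close copies decide how reads can be told apart. Each is the GENCODE M21 sequence, 5′ to 3′ on the coding strand, up to the last 300 bases before the joining site: the whole listed span of the IGHV6 pair, and chr12:113896408-113896707 and chr12:114153180-114153479 of IGHV7-1 and IGHV7-3, minus strand of mm10. Capitals mark the bases that differ from the other gene of the pair or have no partner in it.
IGHV6-3: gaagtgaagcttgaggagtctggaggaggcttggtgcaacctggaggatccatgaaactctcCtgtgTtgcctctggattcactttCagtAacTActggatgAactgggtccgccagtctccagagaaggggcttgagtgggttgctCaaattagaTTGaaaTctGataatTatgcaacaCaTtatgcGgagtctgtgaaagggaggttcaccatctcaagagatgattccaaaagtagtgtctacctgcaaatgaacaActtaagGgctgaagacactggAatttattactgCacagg
IGHV6-6: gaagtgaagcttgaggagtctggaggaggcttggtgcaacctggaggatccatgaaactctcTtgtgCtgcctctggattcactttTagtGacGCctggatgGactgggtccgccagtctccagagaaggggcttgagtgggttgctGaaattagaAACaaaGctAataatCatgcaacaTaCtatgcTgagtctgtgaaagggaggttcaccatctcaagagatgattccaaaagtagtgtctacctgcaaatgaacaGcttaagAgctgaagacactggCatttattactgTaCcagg
IGHV7-1: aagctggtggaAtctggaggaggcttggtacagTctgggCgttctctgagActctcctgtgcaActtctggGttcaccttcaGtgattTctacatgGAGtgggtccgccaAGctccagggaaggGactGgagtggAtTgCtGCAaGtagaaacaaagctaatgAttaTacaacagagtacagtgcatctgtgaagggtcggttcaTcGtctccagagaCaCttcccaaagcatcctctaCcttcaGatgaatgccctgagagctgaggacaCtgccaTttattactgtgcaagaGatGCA
IGHV7-3: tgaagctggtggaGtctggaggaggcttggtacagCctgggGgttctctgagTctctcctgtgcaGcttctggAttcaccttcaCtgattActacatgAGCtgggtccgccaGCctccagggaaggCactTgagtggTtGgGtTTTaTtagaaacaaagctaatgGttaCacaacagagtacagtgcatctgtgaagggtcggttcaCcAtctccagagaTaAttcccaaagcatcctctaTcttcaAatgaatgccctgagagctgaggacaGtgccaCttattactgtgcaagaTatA
IGHV6-3 and IGHV6-6 differed at 21 of 299 aligned bases, an identity of 93.0%, and IGHV7-1 and IGHV7-3 at 34 of 304, an identity of 88.8%. The reads were 75 bases long, and the longest stretch without a difference was 70 bases in the IGHV6 pair and 37 bases in the IGHV7 pair. Over all pairs the identity was 83.0% to 93.0% within IGHV6, 85.6% to 95.1% within IGHV7 and 70.3% to 76.7% between the families. The sources used here do not say how the authors' counting divided reads between close copies, so values of single genes are uncertain to that extent and the family sums less so.

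The germline 3′ ends are shown because they are the only part of a V gene that reaches into the CDR3. Capitals run from the cysteine codon at which the CDR3 starts to the last germline base.
IGHV6-3: tattacTGCACAGG
IGHV6-4: tattacTGTACAAGG
IGHV6-5: tattacTGTACAAGG
IGHV6-6: tattacTGTACCAGG
IGHV6-7: tattacTGTACATGG
IGHV7-1: tattacTGTGCAAGAGATGCA
IGHV7-2: tattacTGTGCAAGAGATACA
IGHV7-3: tattacTGTGCAAGATATA
IGHV7-4: tattacTGTGTAAAAGCTGTA
IGHV6-3 starts its CDR3 with TGC, and the other 8 genes start it with TGT. The germline bases from this codon on number 8 in IGHV6-3, 9 in the other IGHV6 genes, 13 in IGHV7-3 and 15 in the other IGHV7 genes.

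VH reads, the depth behind every share below, numbered 35505 to 53071 in the controls and 1637 to 56542 in the knockouts, with knockout 3 the shallowest. Among the markers of other B-lineage cells, 6 of the 7 switched constant regions were listed and all 6 had reads in both groups; together they made up 51.0% to 57.6% of constant-region reads in controls and 6.69% to 44.2% in knockouts. IGHM, used before switching, held 41.4% to 48% and 55.4% to 92.7%, and IGHD 0.651% to 0.977% and 0.467% to 0.759%. The 4 light-chain constant regions had 2.22 to 3.97 reads per IGHM read in controls and 0.389 to 2.78 in knockouts. The 2 B-1 cell VH genes IGHV11-2 and IGHV12-3 held 6 to 20 reads together in controls and 0 to 9 in knockouts, with both at 0 in knockout 3. The part of these cells in the results below was not tested.

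Both families were a small part of the repertoire, and neither share differed between the groups by more than the spread between replicates. IGHV6 took 0.968%, 1.56%, 1.60% and 1.72% of VH reads in controls 1 to 4. In knockouts 1 to 4 it took 0.403%, 1.45%, 1.22% and 1.99%. The knockouts held both the lowest and the highest sample, and the groups overlapped. The means were 1.46% ± 0.336 and 1.27% ± 0.660 (SD, n = 4 each), a difference of -0.195 percentage points (two-sided exact permutation p = 0.629, Benjamini-Hochberg 0.943 over 15 families). IGHV7 took 0.436%, 1.15%, 0.890% and 1.20% in the controls and 0.458%, 1.22%, 1.22% and 0.299% in the knockouts. Control 1, knockout 1 and knockout 4 were low, and the other 5 samples lay between 0.890% and 1.22%. The means were 0.920% ± 0.351 and 0.80% ± 0.491, a difference of -0.120 percentage points (exact permutation p = 0.83, Benjamini-Hochberg 0.943). With 4 samples against 4 the smallest p is 0.029, and 13.3% of the 15 families reached it by reads, IGHV9 and IGHV13. In bulk RNA, fewer cells that use a segment and less RNA per cell cannot be told apart. The direction was not stable: the IGHV6 difference was 0.0925 without knockout 1, and the IGHV7 difference was 0.0470 without knockout 4.

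The ratio of the families to each other does not depend on the VH total. IGHV6 held 2.22, 1.35, 1.79 and 1.43 reads per IGHV7 read in controls 1 to 4, against 0.880, 1.19, 1.0 and 6.66 in knockouts 1 to 4. Knockouts 1 to 3 lay below every control, while knockout 4 lay far above all other samples. Knockout 3 had 20 reads of each family, so its place in this order is uncertain. The mean log2 ratio differed by -0.04 (exact permutation p = 1.0), and by -0.72 without knockout 4 (exact permutation p = 0.0571, the smallest 4 against 3 can give).

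**Figure D1:**
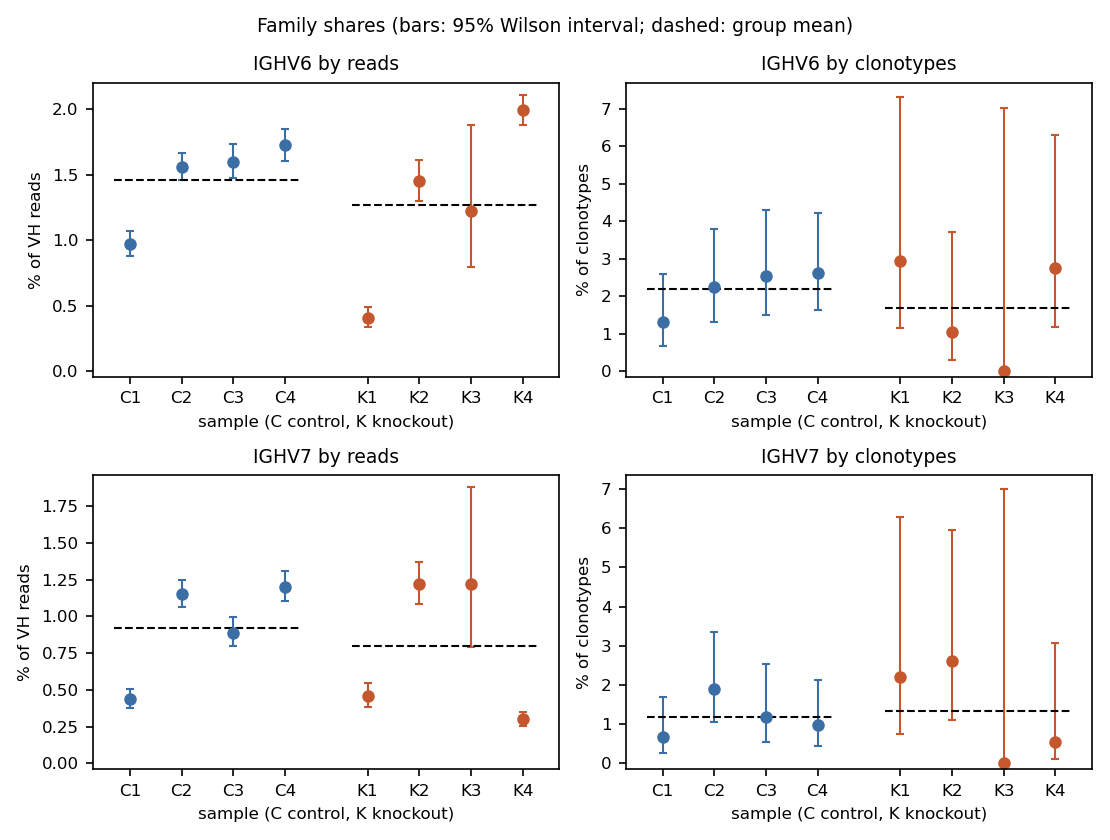
Shares of IGHV6 (top) and IGHV7 (bottom) in percent of VH reads (left) and in percent of clonotypes with 1 listed V family (right), for controls C1 to C4 and knockouts K1 to K4. Bars are 95% Wilson intervals for counting error and dashed lines are group means; by reads IGHV6 ran from 0.403% in K1 to 1.99% in K4, and knockout 3 held 0 clonotypes of either family.

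Within IGHV6, IGHV6-3 and IGHV6-6 held most reads, and IGHV6-7 held 14.3% of the family's reads in control 1. IGHV6-3 took 0.592%, 0.705%, 0.755% and 0.433% of VH reads in controls 1 to 4, against 0.384%, 1.02%, 0.855% and 0.193% in knockouts 1 to 4. The knockouts lay on both sides of the controls. The means were 0.621% ± 0.143 and 0.613% ± 0.389, and edgeR's quasi-likelihood test gave a log2 fold change of -0.04 with a standard error of 0.73 (adjusted p = 0.996).

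IGHV6-6 had the widest range of the 9 members in percent of VH reads. It took 0.236%, 0.808%, 0.825% and 1.28% in the controls and 0.0157%, 0.429%, 0.367% and 1.79% in the knockouts. Knockout 1, with 4 reads, was the lowest sample, and knockout 4, with 1011, the highest. The means were 0.787% ± 0.428 and 0.650% ± 0.780, and the log2 fold change was -0.26 with a standard error of 0.98 (edgeR, adjusted p = 0.911).

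IGHV6-7, the IGHV6 gene farthest from the D segments, was read in each control and in no knockout. Its reads numbered 54, 16, 2 and 1 in controls 1 to 4, or 0.138%, 0.0301%, 0.00563% and 0.00221% of VH reads, and 0 in knockouts 1 to 4. Control 1 alone held 54 of the 73 reads. Against a floor of 3 reads over the 106081 VH reads of the knockouts together, or 0.00283%, the pooled control share of 0.0422% was at least 14.9-fold higher, and at least 5.02-fold higher without control 1. Controls 3 and 4 pooled stood at 0.00372%, within 1.31-fold of that floor. A level as in controls 3 or 4 was not detectable at the depth of knockouts 1 to 3, whose floors were 0.0117%, 0.0134% and 0.183%. Knockout 4, with a floor of 0.00531%, could not show a level as in control 4 either. The floor of knockout 3 lay above every control, so its 0 reads do not set it below any of them. edgeR gave IGHV6-7 an unadjusted p of 0.00445 and an adjusted p of 0.0831 over the 130 genes tested, which did not pass. Over 12 alternatives the adjusted p ran from 0.0222 to 0.240 and 3 of them made the call: without control 4 (adjusted p = 0.0494), with every gene of at least 1 count tested (0.0372), and with the replicate number as a block (0.0222). A gene with 0 reads in every knockout was not rare: 5 of the 130 genes tested, 3.85%, shared this, with IGHV3-4 at 61 control reads. All 5, IGHV6-7 among them, passed the minimum of 10 counts through control reads alone. Their place among the genes tested therefore depends on their level in controls.

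The other IGHV6 genes were barely read. IGHV6-4 had 1, 6, 0 and 1 reads in the controls and 0, 0, 0 and 4 in the knockouts. IGHV6-5 had 0, 2, 4 and 2 reads in the controls and 1, 0, 0 and 2 in the knockouts. Neither passed the test (edgeR, adjusted p = 0.872 and 0.738).

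**Figure D2:**
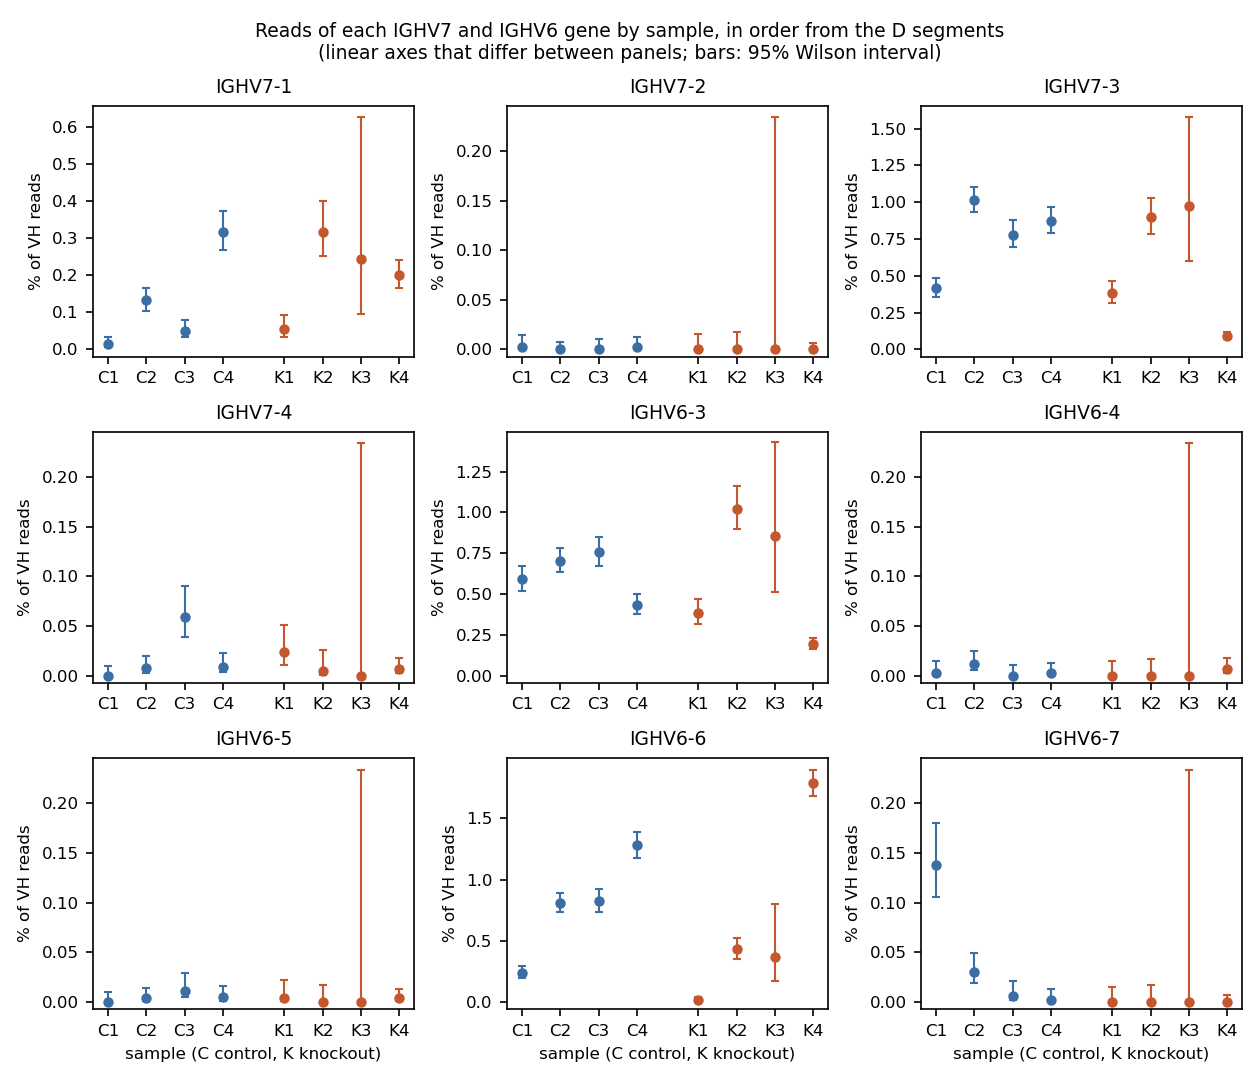
Percent of VH reads of each of the 9 genes in controls C1 to C4 and knockouts K1 to K4, with 95% Wilson intervals for counting error; the linear axes differ between panels. IGHV6-7 is above 0 in the controls alone, and IGHV6-6 has its lowest and highest samples, 0.0157% and 1.79%, in the knockouts; the long bars of K3 come from its 1637 VH reads.

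Within IGHV7, IGHV7-3 was the most read gene in 7 of 8 samples. It took 0.418%, 1.01%, 0.780% and 0.875% of VH reads in controls 1 to 4, against 0.380%, 0.899%, 0.977% and 0.0920% in knockouts 1 to 4. Knockout 4 stood apart at the low end, and knockouts 2 and 3 lay inside the control range. The means were 0.771% ± 0.254 and 0.587% ± 0.423, with a log2 fold change of -0.43 and a standard error of 0.79 (edgeR, adjusted p = 0.774).

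IGHV7-1, the T15 gene, took 0.0154%, 0.132%, 0.0507% and 0.316% in the controls and 0.0548%, 0.317%, 0.244% and 0.200% in the knockouts. Both groups spanned nearly the same top level, and the 2 lowest samples were controls. The means were 0.129% ± 0.134 and 0.204% ± 0.111, with a log2 fold change of 0.64 and a standard error of 0.91 (edgeR, adjusted p = 0.701). Of the 8 members tested it alone had a positive fold change with the VH total as library size, and its sign held under all 12 alternatives. IGHV7-4 had 0, 4, 21 and 4 reads in the controls and 6, 1, 0 and 4 in the knockouts, so that control 3 held most of its reads. Its log2 fold change of -0.75 (edgeR, adjusted p = 0.738) was 0.92 without control 3. IGHV7-2 had 1 read in control 1 and 1 in control 4, too few to test.

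Levels of different genes can be set side by side per kb of listed span. In controls, IGHV6-6 stood at 2.62% ± 1.43 of VH reads per kb, IGHV6-3 at 2.08% ± 0.477 and IGHV7-3 at 1.66% ± 0.547, and these neighbours did not differ beyond their spread. IGHV7-1 followed at 0.238% ± 0.249 and IGHV6-7 at 0.147% ± 0.214, again within their spread. IGHV7-4, IGHV6-5, IGHV6-4 and IGHV7-2 came last at 0.0404%, 0.0162%, 0.0134% and 0.00260%. In knockouts the means of the first 4 kept this order, at 2.17% ± 2.60, 2.05% ± 1.3, 1.26% ± 0.910 and 0.379% ± 0.205. The first place of IGHV6-6 came from knockout 4 alone, at 5.96%. In knockouts 1 to 3 it stood at 0.0522%, 1.43% and 1.22%, below IGHV6-3 at 1.28%, 3.41% and 2.86%, and below IGHV7-3 too. The spans of the IGHV7 genes also hold the intron, which lowers their values per kb relative to IGHV6 for spliced RNA.

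The balance between the genes of a family varied widely between samples, and neither pair differed between the groups by the exact test. IGHV6-3 held 61.1%, 45.2%, 47.3% and 25.2% of IGHV6 reads in controls 1 to 4, against 95.1%, 70.4%, 70% and 9.68% in knockouts 1 to 4. Knockouts 1 to 3 lay above every control and knockout 4 below every control. The value of knockout 3 rests on 14 of 20 reads, so its place in this order is uncertain. Reads of IGHV6-6 per read of IGHV6-3 were 0.398, 1.15, 1.09 and 2.95 in the controls and 0.0408, 0.421, 0.429 and 9.28 in the knockouts. The mean log2 ratio was 0.14 ± 1.18 and -0.97 ± 3.21, a difference of -1.11 (exact permutation p = 0.629) that was -2.50 without knockout 4 (exact permutation p = 0.171) and 0.11 without knockout 1.

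Knockout 4 was also at the edge within IGHV7. IGHV7-1 held 3.53%, 11.5%, 5.70% and 26.3% of IGHV7 reads in the controls and 12%, 26%, 20% and 66.9% in the knockouts. Reads of IGHV7-1 per read of IGHV7-3 were 0.0368, 0.130, 0.0650 and 0.361 in the controls and 0.144, 0.353, 0.250 and 2.17 in the knockouts. The mean log2 ratio was -3.28 ± 1.42 and -1.29 ± 1.69, a difference of 1.99 in the direction of IGHV7-1 (exact permutation p = 0.143). It ran from 1.18 to 2.59 with 1 sample left out and was 1.18 without knockout 4. These ratios were tested after their values were seen, among 7 such tests, with Benjamini-Hochberg values of 0.686 and 0.25.

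**Figure D3:**
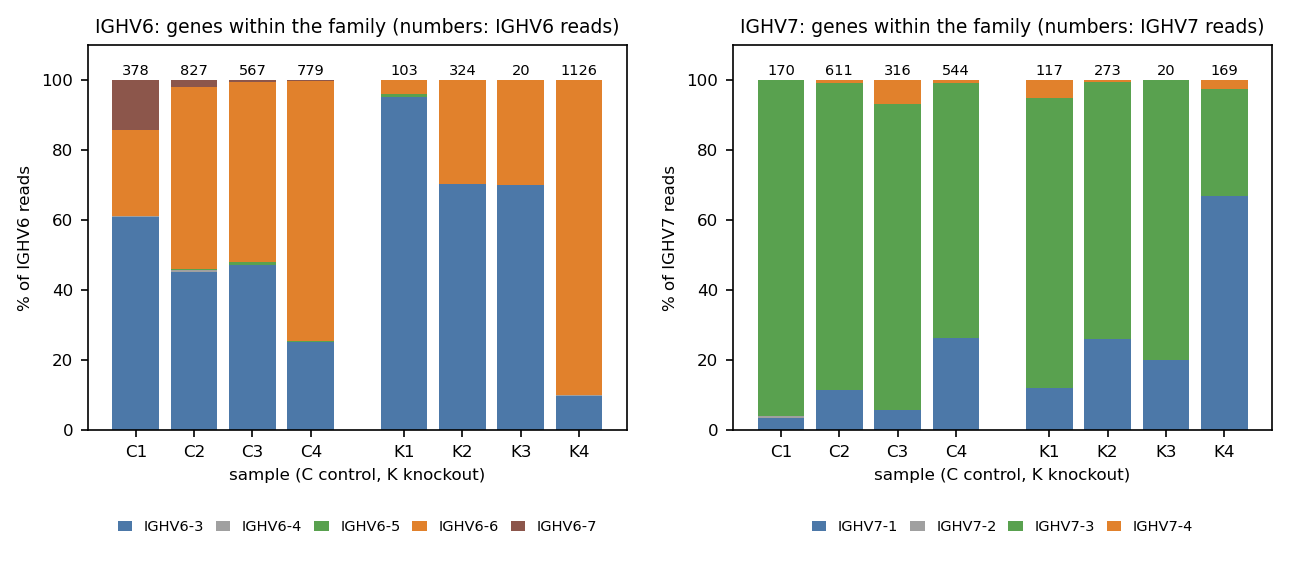
Percent of IGHV6 reads (left) and of IGHV7 reads (right) that each gene held, stacked to 100%, in controls C1 to C4 and knockouts K1 to K4, with the family's reads above each bar. IGHV6-3 runs from 95.1% in K1 to 9.68% in K4, and IGHV7-1 holds most of the IGHV7 reads in K4 alone, at 66.9%.

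Over the whole table, the quasi-likelihood test called 0 of 130 VH genes, or 0.0%, and so 0 of the 8 members tested. At an unadjusted p under 0.05 it held 36 genes, 34 of them lower in knockouts, or 26.2%, and 1 of the 8 members, IGHV6-7. DESeq2 called 5 of the 126 genes to which it gave an adjusted p, or 3.97%, and 0 members. With 0 reads taken as a share of 0, every knockout lay below every control for 32 of the 130 genes, or 24.6%. Of the 8 members this held for 1, IGHV6-7, a share no higher than the background. A 0 can come from depth, as in knockout 3 with 1637 VH reads, so these counts do not set each knockout below each control.

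Most members lay near or above the middle of the VH genes in fold change, and IGHV6-7 had the lowest of all 130. As IGHV6-7 was read in no knockout, its fitted value is no measure of size. Of the 8 tested, 7 had a log2 fold change below 0, beside 97 of all 130 genes, but 7 also lay above the median of all 130 genes. IGHV6-5 at -0.78 and IGHV7-4 at -0.75 were close to that median, with standard errors of 1.24 and 1.19. The median was -0.44 for the 8 members, -0.82 for all VH genes, -0.09 for the 18 tested genes of the proximal families IGHV2 and IGHV5, -1.49 for the 25 of the other intermediate families and -1.11 for the 79 of the distal families IGHV1 and IGHV8. TMM scaling and the size factors of DESeq2 moved the median of all genes by 1.0 and 1.03 on the log2 scale. Under both, the members with a log2 fold change below 0 fell to 1, IGHV6-7, while 7 of 8 stayed above the median of all genes. Of all 130 genes, those below 0 fell to 59 with TMM and 57 with DESeq2. So the sign of 6 of the 8 members tested, all but IGHV6-7 and IGHV7-1, turned with the scaling.

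Genes beside the members showed values of both signs. IGHV9-3, 12.1 kb nearer the D segments than IGHV7-3, had a mean share of 3.39% ± 1.63 in the 4 controls against 0.864% ± 0.349 in the 4 knockouts, and its log2 fold change was -1.95 with a standard error of 0.72 (edgeR, adjusted p = 0.113). IGHV14-4, 22.8 kb on the other side of IGHV7-3, took 0.609% ± 0.150 and 2.22% ± 2.53, a log2 fold change of 1.87 (edgeR, adjusted p = 0.185). IGHV7-4 lay between IGHV3-3 and IGHV3-4, with log2 fold changes of -3.45 and -6.74 (edgeR, adjusted p = 0.118 and 0.0720); IGHV3-4 had 0 reads in every knockout, so its fitted value is no measure of size. IGHV7-1 and IGHV7-2 stood between IGHV2-9, at -1.56, and IGHV14-1, at -0.23 (edgeR, adjusted p = 0.279 and 0.907). The IGHV6 block was flanked by IGHV12-3 at 0.00 and by IGHV8-2, 6.37 kb beyond IGHV6-7, at 0.32 (edgeR, adjusted p = 0.997 and 0.935). None of these passed the test.

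**Figure D4:**
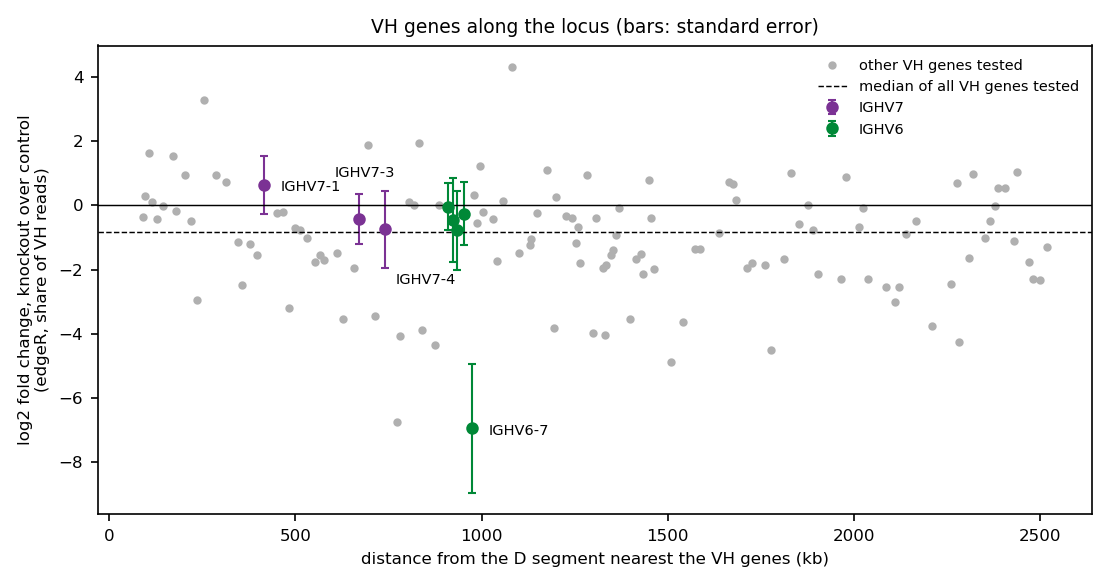
Log2 fold change, knockout over control, of the share of VH reads for the 130 VH genes tested by edgeR, against the distance in kb from the D segment nearest the VH genes; IGHV7 in purple and IGHV6 in green with standard errors, other genes in grey, and the median of all genes, -0.82, dashed. Of the members, 7 lie above the dashed line and IGHV6-7, with 0 reads in the knockouts, lies at the bottom.

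Among the 122 tested VH genes outside both families, those whose log2 share followed the IGHV6 share most closely over the 8 samples were IGHV1-15 (Pearson r = 0.910), IGHV1-2 (0.884) and IGHV1-23 (0.853). IGHV1-15 stood at 0.0431% in knockout 1 and 12.4% in knockout 4, which were also the lowest and highest samples of IGHV6. Those most like IGHV7 were IGHV1-78 (0.843), IGHV3-5 (0.837) and IGHV1-70 (0.817). IGHV3-5 and IGHV1-70 had 0 reads in knockouts 1, 3 and 4. Since 1 read was added before the logarithm, their values in these samples were set by depth alone. The points share the library and the VH total, and these values are a description of 8 samples with no test.

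Clonotypes, the distinct complete CDR3 nucleotide sequences of a sample, count a sequence once however many reads it had, but a join must have enough RNA to be assembled, and near-identical variants of a join count apart. IGHV6 held 8 of 606, 13 of 581, 13 of 511 and 16 of 609 clonotypes with 1 listed V family in controls 1 to 4, or 1.32%, 2.24%, 2.54% and 2.63%. It held 4 of 136, 2 of 192, 0 of 51 and 5 of 181 in knockouts 1 to 4, or 2.94%, 1.04%, 0 and 2.76%. The 0 of 51 in knockout 3 allows a share of up to 5.88%. The means were 2.18% ± 0.599 and 1.69% ± 1.41, a difference of -0.496 percentage points (exact permutation p = 0.629, Benjamini-Hochberg 0.920 over 14 families) that was 0.0662 without knockout 3. Control 1 and knockout 2 were low, and the other samples with a clonotype lay between 2.24% and 2.94%.

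IGHV7 held 4, 11, 6 and 6 clonotypes in the controls, or 0.660%, 1.89%, 1.17% and 0.985%, and 3, 5, 0 and 1 in the knockouts, or 2.21%, 2.60%, 0 and 0.552%. Knockouts 1 and 2 lay above every control and knockout 4 below every control, while the 0 of 51 in knockout 3 again allows up to 5.88% and so has no place in this order. The means were 1.18% ± 0.522 and 1.34% ± 1.26, a difference of 0.162 percentage points (exact permutation p = 0.83, Benjamini-Hochberg 1.0) that was -0.0103 without control 1, -0.126 without knockout 1 and -0.259 without knockout 2. By clonotypes 0.0% of 14 families passed. The share rests on contigs whose V genes all fell in IGHV7: a further 180 contigs listed IGHV7 beside other families, most often IGHV3 in 161 of them, against 13 such contigs for IGHV6. With any listed V gene counted, IGHV7 stood at 5.80% to 6.89% in controls and at 7.82%, 4.33%, 0 and 2.90% in knockouts 1 to 4, a difference of -2.59 percentage points (exact permutation p = 0.171). Counting error limits all of these shares: the Wilson interval of IGHV7 in knockout 1, with 3 of 136, ran from 0.753% to 6.28%.

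The clonotype with the most CDR3-spanning reads is shown for each family and group as an example of its joins; its part in the reads per gene was not tested. Capitals mark the bases from the 5′ end that match a germline 3′ end of the family without a break.
IGHV6, control 2: TGTACggggttactccttgactactgg
IGHV6, knockout 4: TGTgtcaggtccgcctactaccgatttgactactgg
IGHV7, control 4: TGTGCAAGAGggggaccctttgactactgg
IGHV7, knockout 1: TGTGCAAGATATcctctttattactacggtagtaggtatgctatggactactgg
The IGHV6 clonotype of control 2 had 11 CDR3-spanning reads and IGHJ2, and that of knockout 4 had 13 reads, IGHJ2 and the constant region IGHA. The IGHV7 clonotype of control 4 had 13 reads and IGHJ2, with 10 codons, and that of knockout 1 had 7 reads, IGHJ4 and IGHA, with 18 codons and 19 bases shared with IGHD1-1.

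Knockout 4, the sample with the most IGHV6-6 reads, drew 25 of its 30 IGHV6 CDR3-spanning reads, or 83.3%, from 2 clonotypes that differ in 2 bases near the V end, shown with these bases in capitals. They had 12 and 13 reads.
knockout 4, first: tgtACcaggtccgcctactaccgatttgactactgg
knockout 4, second: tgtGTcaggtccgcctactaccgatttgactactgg
Only the first holds the complete germline end of IGHV6-6. In knockout 1, where IGHV6-3 held 95.1% of IGHV6 reads, 3 of the 4 IGHV6 clonotypes and 6 of its 7 reads were near-identical joins to IGHD1-1 and IGHJ1 that started with TGC. Groups of clonotypes within 3 bases of each other were also seen in controls, where the largest such group held 22.2% to 42.1% of a sample's IGHV6 reads. Taking each group once, the 61 IGHV6 clonotypes came to 49 and the 36 IGHV7 clonotypes to 33; whether the variants are separate joins, mutated copies or read errors was not tested.

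The first codon bears on IGHV6-3, the one germline end with TGC, where the contigs do not separate the genes. None of the 61 IGHV6 contigs listed a single V gene, and IGHV6-6 was on every list. TGC opened 15 of them, against 3 of 2806 clonotypes of all other families, or 0.107%. By sample TGC opened 2 of 8, 0 of 13, 3 of 13 and 4 of 16 IGHV6 clonotypes in controls 1 to 4, against 4 of 4, 1 of 2 and 1 of 5 in knockouts 1, 2 and 4. Knockout 1 had the highest share of IGHV6-3 reads and the highest share of TGC clonotypes, while the controls did not follow the same order in both, as control 2 had no TGC clonotype at 45.2% of reads. In control 3 a group of 4 near-identical clonotypes held 2 that opened with TGC and 2 that opened with TGT. Whether these are separate joins was not tested, so the codon may not mark the gene without error. Of the 36 IGHV7 contigs, 23 listed a single gene, IGHV7-3 in 19 and IGHV7-1 in 4. Of these 4, 3 were in controls and 1 in knockouts.

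IGHV6 joins had shorter CDR3s than all families together in 6 of 7 samples. Their mean length was 11.4, 9.77, 9.69 and 11.3 codons in controls 1 to 4, against 14, 8.0 and 11.4 in knockouts 1, 2 and 4. IGHV7 joins had means of 13.3, 14.5, 14.2 and 12.5 codons in the controls and 14.3, 14.4 and 14 in the same knockouts. The means of knockouts 1, 2 and 4 rest on only 4, 2 and 5 IGHV6 clonotypes and on 3, 5 and 1 IGHV7 clonotypes. The IGHV7 mean was the longer in 7 of 7 samples that held both families, by 0.333 to 6.40 codons and on average by 3.09 codons (two-sided exact test over sign changes of the 7 differences, p = 0.0156, Benjamini-Hochberg 0.109 over 7 tests added after the values were seen). This p is the smallest that 7 samples can give, and after adjustment the difference did not pass. The average ran from 2.54 to 3.55 codons with 1 sample left out and was 3.27 with near-identical clonotypes taken once.

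Against all families of the same sample, the IGHV6 mean differed by -2.62 codons (exact test over sign changes, p = 0.0312, Benjamini-Hochberg 0.109), which did not pass either, and in knockout 1 it was 14 beside 13.9. The IGHV7 mean differed from all families by 0.471 codons (exact test over sign changes, p = 0.141, Benjamini-Hochberg 0.25), which did not pass. Pooled over samples, IGHV6 had the lowest mean of the 10 families with at least 20 clonotypes, 10.7 codons. IGHV7 had the second highest, 13.9, close to IGHV9 at 13.9 and IGHV8 at 13.8, beside a mean of 13.3 over all 2867 clonotypes. CDR3s of 9 codons or fewer made up 28 of the 61 IGHV6 clonotypes, or 45.9%, 0 of the 36 of IGHV7, and 193 of all 2867, or 6.73%. Some of the 28 were near-identical to each other. With near-identical clonotypes taken once, 22 of 49 IGHV6 groups, or 44.9%, were this short, and the IGHV6 mean was 10.6 codons. The germline part of the CDR3 differed in the same direction: the stretch matching a germline end had a median of 6 bases in IGHV6 and 12 in IGHV7, and the rest of the CDR3 a median of 25 and 29.5 bases. Between groups the lengths did not differ beyond their spread: IGHV6 had a mean of 10.5 ± 0.932 codons in controls (n = 4) and 11.1 ± 3.01 in knockouts (n = 3, exact permutation p = 0.686), and IGHV7 13.6 ± 0.921 and 14.2 ± 0.214 (n = 4 and 3, exact permutation p = 0.40).

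**Figure D5:**
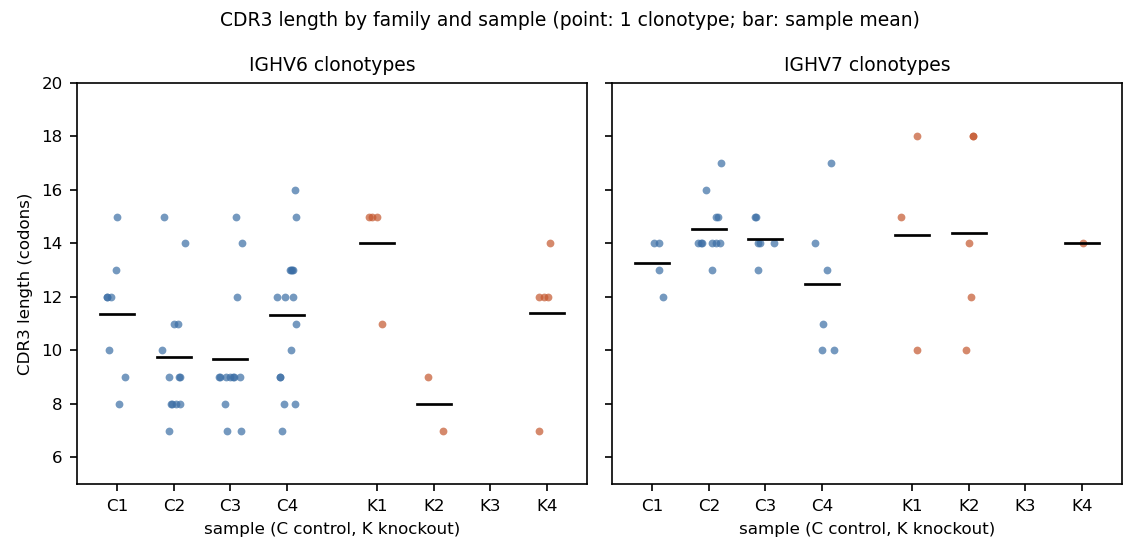
CDR3 length in codons of each IGHV6 (left) and IGHV7 (right) clonotype in controls C1 to C4 and knockouts K1 to K4, with a bar at each sample's mean. IGHV6 clonotypes run from 7 to 16 codons and IGHV7 clonotypes from 10 to 18; knockout 3 had none of either family.

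Some joins recurred. Of 3846 distinct complete CDR3 sequences, 34, or 0.884%, were found in more than 1 sample, among them 2 of 60 IGHV6 and 1 of 35 IGHV7 sequences. The 3 are shown because the same nucleotides were read in separate samples, with capitals for the bases that match a germline end.
IGHV6, controls 2 and 4: TGTACCAGGtttgactcctgg
IGHV6, knockout 2: TGTACtaactgggactactgg
IGHV7, controls 3 and 4: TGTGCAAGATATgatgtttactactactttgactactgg
The first had 1 and 7 reads, joined IGHJ2 and held no D match of 8 bases or more. The second, with 8 reads and 9 bases of IGHD4-1, also stood in control 1 with 3 reads, there with IGHV1 genes listed. The third had 7 and 2 reads and was listed as IGHV7-3 in both controls. Whether a recurring sequence came from separate joins or from reads passed between libraries was not tested.

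The J, D and constant segments of these joins were spread as follows. Of the 51 IGHV6 clonotypes with a J gene, 26 used IGHJ2, 13 IGHJ3, 6 IGHJ1 and 6 IGHJ4; all 13 with IGHJ3 were in controls, and the 10 of knockouts used IGHJ2 in 6 and IGHJ1 in 4. Of these 4, 3 were the near-identical joins of knockout 1. Over all families IGHJ3 was used by 18.4% of 1540 control and 21.1% of 421 knockout clonotypes, and IGHJ1 by 10.8% and 15.7%. The difference in J use was not tested. Of the 27 IGHV7 clonotypes with a J gene, 15 used IGHJ2, 7 IGHJ4, 3 IGHJ1 and 2 IGHJ3. A D match of at least 8 bases was found in 25 of 61 IGHV6 clonotypes, 14 of them to the IGHD2 family, and in 19 of 36 IGHV7 clonotypes, 10 to IGHD2 and 7 to IGHD1. A constant region was assigned to 13 IGHV6 clonotypes, 12 to IGHA and 1 to an IGHG gene, and to 7 IGHV7 clonotypes, 6 to IGHA and 1 to an IGHG gene. None was assigned to IGHM in either family, while over all clonotypes with a constant region 95.3% of 469 were assigned to IGHA, although IGHM held 41.4% to 92.7% of constant-region reads. The J gene and the constant region of a contig were taken as the first entry listed for it. How far contigs with several listed entries shape these counts was not tested.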

How the data were processed

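Poly-A RNA of sorted pro-B cells was read as 75-base single ends, aligned with STAR 2.5.1 to mm10 per the submitters' processing notes, and assembled into receptor contigs with TRUST, as the design text states. The authors deposited raw read counts per gene segment and tables of assembled contigs with a count of reads per contig and an expression score per clonotype. That deposited score times the CDR3 length in bases, or 48 where shorter, gave a whole number within 0.01 for 100% of contigs, called CDR3-spanning reads. A complete contig has a CDR3 from cysteine to tryptophan.

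Shares were taken of all VH reads and of clonotypes with 1 listed V family, and compared by two-sided exact permutation tests over 70 arrangements, called at p under 0.05. VH genes with at least 10 counts were tested by edgeR 4.0.16 in R 4.3.3 with the VH total as library size and Benjamini-Hochberg adjustment over all 130, after a check on simulated counts. DESeq2 1.42.0, TMM scaling, other filters and clonotype definitions, a replicate block and each sample left out were alternatives. Wilson intervals (95%) and floors of 3 counts cover counting error only, since no molecular identifiers are described. Germline sequences came from GENCODE M21; python 3.11.15, pandas 2.3.3 and scipy 1.17.1 were used.

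Named were all 9 members, the nearest tested VH gene on each side, the 3 VH genes most like each family, lists of proximal, other intermediate and distal families, and the largest clonotype per family and group; recurring and near-identical clonotypes, the gene ratios and the CDR3 length tests were added with their values in view. The members and lists were chosen with earlier results of these data known.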

Additional observations from a re-analysis of the deposited data

Results flagged for a closer look

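In 32 groups of 4 samples examined, 5 had a sample far from the others by Dixon's test, where chance gives about 1 in 20 groups. Knockout 4 accounted for 4 of the 5. Its ratio of IGHV6 to IGHV7 reads was 6.66, its ratio of IGHV6-6 to IGHV6-3 reads was 9.28 and its ratio of IGHV7-1 to IGHV7-3 reads was 2.17, each the highest of the 8 samples. On the log2 scale, on which the ratios were tested, the gap to the next knockout was 0.852 of the range for the family ratio, still past the limit, but 0.567 and 0.670 for the gene ratios, under it. Its IGHV6-4 share of 0.00707% of VH reads rests on 4 reads beside 0 in the other knockouts, a pattern that any read would give, so the count of 5 depends on the scale and on zeros. Control 3 stood apart for IGHV7-4, at 0.0591% of VH reads from 21 reads. The 2 IGHV6 clonotypes of knockout 4 that differ in 2 bases held 83.3% of its IGHV6 CDR3-spanning reads; their part in its ratios was not tested.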

How the results depend on the processing

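None of the 59 values of the family shares and the family ratio under an alternative had an exact p under 0.05, but samples left out in turn could not go below 0.0571, so this says nothing of stability. With 1 sample left out the difference ran from -0.437 to 0.0925 percentage points for the IGHV6 and from -0.281 to 0.0470 for the IGHV7 share of reads, from -0.914 to 0.0662 and from -0.259 to 0.609 for their shares of clonotypes, from -0.72 to 0.26 for the log2 family ratio, which was above 0 without control 1 or any of knockouts 1 to 3, and from -2.50 to 0.11 for the log2 ratio of IGHV6-6 to IGHV6-3. The IGHV7 share of clonotypes turned to -2.59 with any listed V gene and to -0.418 when weighted by reads. VH genes called by edgeR numbered 0 as reported, 0 to 5 with 1 sample left out (5 without control 4 and 4 without knockout 2), 6 with every gene of at least 1 count and 5 by DESeq2; of the members, 0 to 1 with 1 sample left out and 1 with every gene of at least 1 count were called, each time IGHV6-7, whose call among samples left out came without control 4. TMM and DESeq2 turned the log2 fold changes of IGHV6-3 (0.80 and 0.80), IGHV6-4 (1.10 and 1.38), IGHV6-5 (0.57 and 0.87), IGHV6-6 (1.52 and 1.48), IGHV7-3 (0.29 and 0.31) and IGHV7-4 (0.49 and 0.50). Both scalings also raised the median of all genes. With 1 sample left out IGHV6-3 ran from -0.46 to 0.27 (above 0 without control 2, control 3, knockout 1 or knockout 4), IGHV6-6 from -1.60 to 0.16 (above 0 without control 4 or knockout 1) and IGHV7-4 from -1.63 to 0.92 (above 0 without control 3). The gene ratios and CDR3 lengths with samples left out, and the lengths weighted by reads or with near-identical clonotypes taken once, were alternatives chosen after seeing the data. The causes of the shifts under the alternatives were not tested.

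Same-numbered controls and knockouts did not deviate together in every pair (r from -0.00418 to 0.116), though 6 of 8 samples correlated best with their own number. With the replicate block edgeR called 15 VH genes and 1 member, IGHV6-7 (adjusted p = 0.0222), and IGHV7-4 turned to a log2 fold change of 0.27. For the family shares the paired mean difference equals that of the groups by construction, so the block changes their p alone, which cannot go below 0.125. Depth limits the genes with few reads: 3 reads are 0.00531% of VH reads in knockout 4 and 0.183% in knockout 3.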
